A study of Homo sapiens with 6 samples.

Results

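SNARE proteins are the membrane proteins that drive vesicle fusion, and the 42 genes described here are 38 human SNARE and SEC22-like genes together with NSF and its adaptors NAPA, NAPB and NAPG. They were selected by gene name from an sgRNA library covering the genome. The rule used no phenotype, but the list was drawn up with earlier results of these data known. All 42 were measured, out of 18905 genes measured in the whole screen. Each gene was read through 5 sgRNAs at the start site used, so that 210 sgRNAs carry the values below.

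A SNARE complex forms when a Qa, a Qb and a Qc helix on one membrane zip together with an R helix on the other, which pulls the membranes into contact and leads to fusion. Most syntaxins supply the Qa helix and a few supply Qc, SNAP-25 and its relatives supply Qb and Qc in a single protein, and VAMPs supply most R helices. After fusion, SNAP adaptors bind the spent complex and recruit the ATPase NSF, which uses ATP to pull the helices apart so that they can be used again. Each step of membrane traffic has its own set of SNAREs, and a receptor made in the endoplasmic reticulum (ER) can meet them in the secretory pathway, in endosomes, on the way back to the surface and on the way to lysosomes.

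The screen was carried out in a clonal HEK293 FLP-In line (human embryonic kidney cells with a recombination site) that stably expressed a Flag-tagged delta opioid receptor chimera (DORmct) fused to the peroxidase APEX2, together with dCas9-KRAB-BFP, the CRISPRi repressor that silences a gene at its start site. All cells received sgRNAs at a multiplicity of infection of 0.2, were selected with 0.75 µg/ml puromycin for 3 days, were grown for 8 days in all, and were then exposed to the opioid peptide DADLE at 10 µM for 90 min, per the labels (the methods give other times). APEX2 activity was read with Amplex UltraRed at 100 µM, whose fluorescence falls when the receptor reaches lysosomes, and the top and bottom quartiles of fluorescence were sorted as separate groups in each of 3 sublibraries, H17, H23 and H456. No cells without DADLE and no cells from before the sort were analysed here, so the values describe signal after agonist and do not separate effects on receptor synthesis from effects on its loss.

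Each group was 1 library, so there were no biological replicates. The 6 libraries held from 23426498 to 50486627 reads, and 97.4% to 98.1% of these fell on sgRNAs that were analysed. The sgRNA phenotype was the log2 ratio of its read share in the top quartile to that in the bottom quartile, centred on the median nontargeting control (NTC) sgRNA of the same sublibrary, and the gene phenotype was the mean over its sgRNAs. A negative phenotype therefore means fewer cells with high APEX2 signal. The sign rests on the quartile named in each sample title. The errors given are SDs over sgRNAs of a gene, and each exact Mann-Whitney p compares a gene's sgRNAs with NTC sgRNAs within the same pair of libraries, so it does not measure the spread between cultures.

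None of the 42 genes passed either threshold that accounts for the number of genes tested. By the exact two-sided Mann-Whitney test with Benjamini-Hochberg adjustment over all genes, 0 of 42 had an adjusted p under 0.05 in the negative direction, where 0.381% of all genes did, and 0 of 42 in the positive direction, where 0.0952% did. With shares of this size in the background, a count of 0 among 42 genes is near the background. By the second call rule, a score cutoff set so that pseudogenes drawn from NTC sgRNAs made up less than 10% of what passed, 0 of 42 were negative hits against 0.746% of all genes, and 0 of 42 were positive hits against 0.201%. Without adjustment, an exact p under 0.05 was found for 1 member with a negative phenotype (NAPA) and for 2 with a positive one (SNAP47 and VAMP2), against 4.05% and 4.06% of all genes. SNAP47 and VAMP2 were in H17, where 3285 of 5971 genes had a positive phenotype. In that sublibrary, 320 genes with a positive and 132 with a negative phenotype had an exact p under 0.05. No gene of H17, member or not, was a positive hit by the second rule. The lowest adjusted p of any member was 0.385, for NAPA.

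The members also lay close to 0 in size. The phenotype was negative for 18 genes and positive for 24, with a median of 0.03, whereas 9369 of all genes were negative and 9536 positive, with a median of 0.00. The median absolute phenotype was 0.0808 in the members and 0.095 in all genes, and the SD over genes was 0.13 and 0.17. In all, 36 of 42 members (85.7%) had a phenotype within 0.2 of 0, beside 82.3% of all genes, and 41 were within 0.3. All 5 sgRNAs shared a sign for 2 members, NAPA and VAMP2 (4.76%), beside 9.15% of the 17298 genes that were read through 5 sgRNAs.

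**Figure D1:**
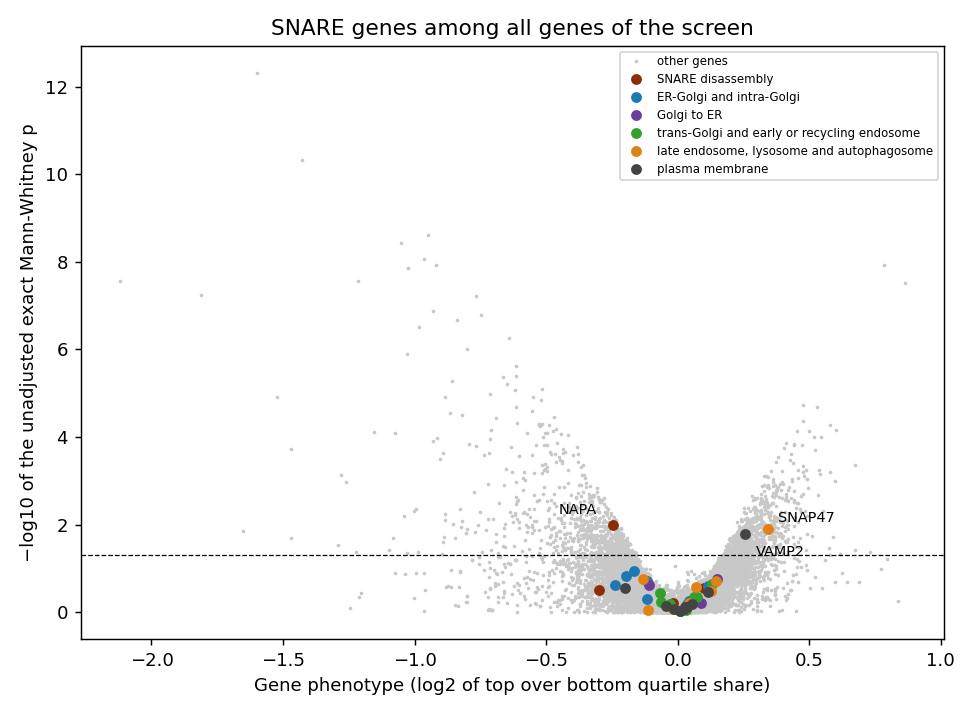
Gene phenotype (log2 of top over bottom quartile share, x axis) against the −log10 of the unadjusted exact Mann-Whitney p (y axis) for the 42 members, drawn over all genes measured. The members lie near the centre of the cloud, and NAPA (−0.25), SNAP47 (0.34) and VAMP2 (0.26) are the 3 with an unadjusted p under 0.05.

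The exact 95% interval for the shift between a gene's sgRNAs and the NTC sgRNAs shows how precisely each shift was measured. It comes from the same unadjusted test, so it does not give the smallest shift that the adjusted threshold could call. For 38 of 42 genes the whole interval lay within 0.5 of 0, and for all 42 it lay within 1. The lowest lower bound was −0.71 (NSF) and the highest upper bound was 0.65 (SNAP47). The interval left out 0 for 3 genes, the same ones named above. These intervals cover the spread over sgRNAs in one sort, and the degree of knockdown of each gene was not measured, so a value near 0 does not separate a gene without effect from sgRNAs with weak repression.

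**Figure D2:**
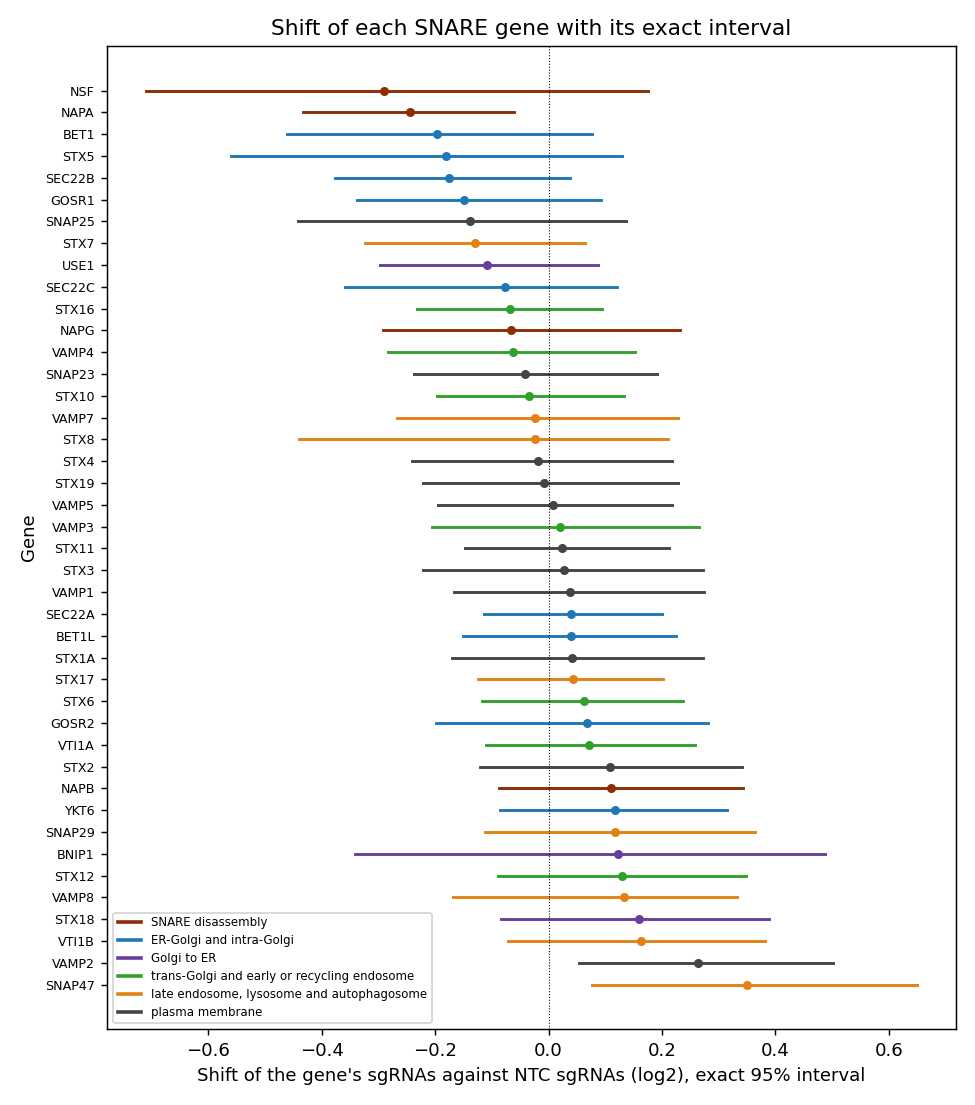
Shift of each member's sgRNAs against NTC sgRNAs (points, log2 scale) with exact 95% intervals (lines), ordered by shift and coloured by role. The interval stays within 1 of 0 for all 42 genes and leaves out 0 for NAPA, SNAP47 and VAMP2.

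Single sgRNAs left the range of the controls at shares near those of all targeting sgRNAs. Of 210 sgRNAs, 98 were below 0, with a median of 0.02. Of these, 1 (0.476%) fell below the 1st percentile of the NTC sgRNAs of its sublibrary, beside 1.03% of all 93274 targeting sgRNAs. Above the 99th percentile were 2 (0.952%), beside 1.13%. Counts this small are near the background. In H17 the 1st percentile was −2.23, and 0.338% of its targeting sgRNAs fell below that value. The member sgRNA below the 1st percentile targeted STX5, with 530 reads in the top and 877 in the bottom library (−0.97). Those above targeted BNIP1, with 468 reads in the top and 241 in the bottom library (0.71), and SNAP47, with 635 and 462 (0.77). Reads per member sgRNA and library ran from 119 to 3914, and the counting SD of a phenotype had a median of 0.0615 (range 0.0372 to 0.183), below the NTC SD of 0.47 in H17, 0.28 in H23 and 0.30 in H456. Reads were PCR products without molecular identifiers, so this SD covers counting error only.

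**Figure D3:**
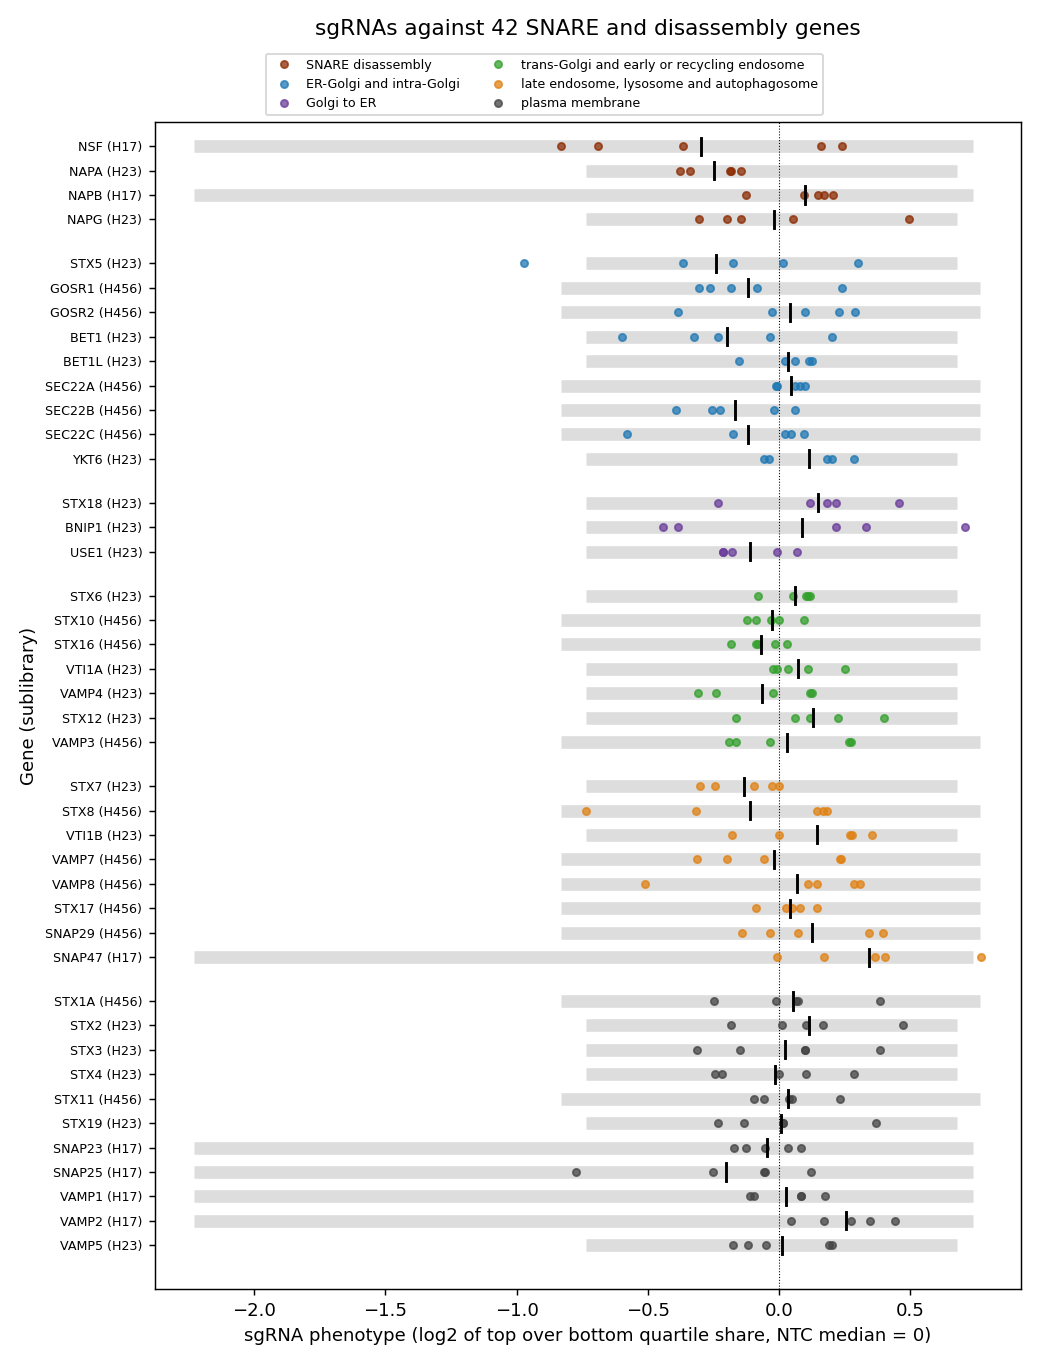
Phenotype of each of 210 sgRNAs (points, log2 of top over bottom quartile share, NTC median at 0) for the 42 members, coloured by role, with black bars for gene means and gray bars from the 1st to the 99th percentile of the NTC sgRNAs of that sublibrary. Only the STX5 sgRNA at −0.97, the BNIP1 sgRNA at 0.71 and the SNAP47 sgRNA at 0.77 lie outside the gray bars, which are widest in H17 (−2.23 to 0.74).

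Among the 4 genes of SNARE disassembly, 3 were negative and 1 positive, with a median of −0.13. NAPA encodes alpha-SNAP, the general adaptor that couples NSF to SNARE complexes. Its 5 sgRNAs had 1338, 1552, 1029, 1809 and 1993 reads in the top library, against 1464, 1655, 987, 1729 and 1857 in the bottom library. Because the top library of H23 was the deeper one, these reads correspond to phenotypes of −0.38, −0.34, −0.19, −0.18 and −0.14, all below the NTC median and all between the 1st and 99th percentiles of the NTC sgRNAs. The gene phenotype was −0.25 ± 0.10 (SD, 5 sgRNAs), with an exact Mann-Whitney p of 0.0102, an adjusted p of 0.385 and a 95% interval of −0.43 to −0.06. It lay at percentile 5.70 of the genes of its sublibrary, and it was the only member of the 42 with 5 negative sgRNAs. CRISPRi sgRNAs are aimed at the region around a gene's start, and since NAPA is the negative member with the lowest p, its region is shown here from RefSeq (GRCh38.p14, chr19:47515034-47515313, minus strand), with the 250 bases before the annotated start in lower case and the first 30 transcribed bases in capitals.
NAPA: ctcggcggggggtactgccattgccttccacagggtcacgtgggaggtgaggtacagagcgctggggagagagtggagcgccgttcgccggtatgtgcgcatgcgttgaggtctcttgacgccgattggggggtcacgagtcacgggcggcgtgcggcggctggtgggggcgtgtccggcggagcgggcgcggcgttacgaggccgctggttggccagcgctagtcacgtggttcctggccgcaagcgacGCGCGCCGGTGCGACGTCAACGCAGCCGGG
This stretch holds 59 NGG motifs (N any base, both strands, overlaps counted), the motif that dCas9 needs beside its target, and has a GC content of 70.7% with 39 CpG dinucleotides.

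NSF had the most negative phenotype of the 42 genes, but its sgRNAs disagreed. The reads were 176, 230, 387, 675 and 922 in the top library, against 389, 461, 620, 749 and 969 in the bottom library, and gave phenotypes of −0.83, −0.69, −0.37, 0.16 and 0.24. The mean was −0.30 ± 0.49 (SD, 5 sgRNAs), the exact p was 0.306 and the 95% interval ran from −0.71 to 0.18. Without its strongest sgRNA the mean was −0.16 (exact p = 0.710), and NAPA, at −0.21, was then the most negative member. NSF lies in H17, where the NTC sgRNAs themselves spread most. The sgRNAs with the fewest reads were also those with the most negative phenotypes, and the read level of the gene (log2 of the mean read share over both libraries relative to the median NTC sgRNA) was −0.42, beside 0.40 for NAPA. NAPG (gamma-SNAP) was at −0.02 ± 0.32 and NAPB (beta-SNAP, an adaptor found mainly in brain) at 0.10 ± 0.13.

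The 9 genes of ER-to-Golgi and intra-Golgi fusion divided into 5 negative and 4 positive phenotypes, with a median of −0.12, and none had an unadjusted p under 0.05. STX5 is the Qa-SNARE of both steps. Its reads were 530, 712, 1163, 1110 and 1618 in the top library, against 877, 772, 1107, 926 and 1105 in the bottom library. The phenotypes of −0.97, −0.36, −0.18, 0.01 and 0.30 thus fell on both sides of 0, and the mean of −0.24 ± 0.48 (exact p = 0.241, 95% interval −0.56 to 0.13) was −0.06 without the strongest sgRNA. Its partners in ER-to-Golgi fusion were at −0.20 ± 0.30 for BET1 (Qc, 4 of 5 sgRNAs negative, exact p = 0.147), −0.17 ± 0.18 for SEC22B (R, 4 of 5 negative, exact p = 0.112) and 0.04 ± 0.27 for GOSR2 (Qb, or membrin). The intra-Golgi SNAREs were at −0.12 ± 0.22 for GOSR1 (Qb), 0.04 for BET1L (Qc) and 0.12 ± 0.15 for YKT6, an R-SNARE anchored by lipid. SEC22A and SEC22C, relatives of SEC22B that lack a SNARE motif, were at 0.05 ± 0.05 and −0.12 ± 0.28.

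In the opposite direction, from Golgi to ER, the 3 genes showed no common sign. The sgRNAs against STX18, the Qa-SNARE of this step, had 1444, 1789, 1190, 2016 and 2184 reads in the top library, against 1431, 1390, 884, 1459 and 1339 in the bottom library. Their phenotypes were −0.23, 0.12, 0.18, 0.22 and 0.46, so that 4 of 5 were positive, and the gene mean of 0.15 ± 0.25 did not pass the unadjusted test (exact p = 0.170) and was 0.07 without the strongest sgRNA. BNIP1, the Qb partner, held both a sgRNA at 0.71 and one at −0.44, with a mean of 0.09 ± 0.49, and USE1, the Qc partner, was at −0.11 ± 0.13.

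The 7 SNAREs of the trans-Golgi network and of early and recycling endosomes lay between −0.07 and 0.13, with 3 negative, 4 positive and a median of 0.03. This is the compartment where a receptor taken up from the surface is sorted, and none of the 7 had an unadjusted p under 0.05. The complex that fuses endosome-derived vesicles with the trans-Golgi network had phenotypes of −0.07 for STX16 (Qa), 0.07 for VTI1A (Qb), 0.06 for STX6 (Qc) and −0.06 for VAMP4 (R). STX10, a Qc-SNARE close to STX6, was at −0.03. VAMP3, or cellubrevin, an R-SNARE of recycling vesicles, was at 0.03, and STX12, a Qa-SNARE of recycling endosomes, had the largest value of the group at 0.13 ± 0.21.

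Of the 8 genes assigned to late endosomes, lysosomes and autophagosomes, 3 were negative and 5 positive, with a median of 0.06. The SNAREs that fuse late endosomes with each other were at −0.13 ± 0.13 for STX7 (Qa), 0.15 ± 0.22 for VTI1B (Qb), −0.11 ± 0.41 for STX8 (Qc) and 0.07 ± 0.33 for VAMP8 (R). VAMP7, the R-SNARE of fusion with lysosomes, was at −0.02. For the fusion of autophagosomes with lysosomes, STX17 (Qa) was at 0.04 ± 0.09 and SNAP29 (Qbc) at 0.13 ± 0.23. VAMP8 has a further start site in the library, which gave −0.09 ± 0.22 over its 5 sgRNAs (exact p = 0.404).

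SNAP47, a SNAP-25 relative of the Qbc class found on intracellular membranes, had the most positive phenotype of the members. The 5 sgRNAs at the start site used had 385, 119, 320, 480 and 635 reads in the top library, against 481, 131, 308, 450 and 462 in the bottom library. Their phenotypes were −0.01, 0.17, 0.37, 0.41 and 0.77, and the mean was 0.34 ± 0.29 (SD, 5 sgRNAs; exact p = 0.0124, adjusted p = 0.393, 95% interval 0.08 to 0.65). The start site was the one with the lower p, as for all genes with more than one site, and the other site of SNAP47 gave a value near 0. There the sgRNAs had 441, 975, 1549, 756 and 711 reads in the top library, against 649, 1260, 1824, 861 and 720 in the bottom library, with a mean phenotype of 0.04 ± 0.20 and an exact p of 0.675. The difference between the sites was not tested. With the sgRNAs of both sites pooled, the phenotype of SNAP47 was 0.19 (exact p = 0.0439), below that of VAMP2 (0.26). Without the strongest sgRNA, the phenotype of SNAP47 was 0.23 and its exact p was 0.0623.

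The 11 SNAREs of the plasma membrane had 3 negative and 8 positive phenotypes, with a median of 0.03. VAMP2, or synaptobrevin 2, is the R-SNARE of synaptic vesicle release and of regulated exocytosis in many cells. Its sgRNAs had 919, 622, 369, 429 and 778 reads in the top library, against 1104, 686, 379, 419 and 711 in the bottom library. All 5 phenotypes were positive (0.05, 0.17, 0.27, 0.35 and 0.44), and the mean was 0.26 ± 0.15 (SD, 5 sgRNAs; exact p = 0.0164, adjusted p = 0.448, 95% interval 0.05 to 0.50). Without its strongest sgRNA, the mean was 0.21 and the exact p was 0.0613. VAMP2 is the positive member whose sgRNAs shared one sign. For comparison with NAPA, the region around one of the 2 starts that RefSeq lists for VAMP2 is shown in the same way (GRCh38.p14, chr17:8162847-8163126, minus strand). The start shown is the one listed first. It was not matched to the site of the sgRNAs, so the values of this stretch may not be those of the targeted start.
VAMP2: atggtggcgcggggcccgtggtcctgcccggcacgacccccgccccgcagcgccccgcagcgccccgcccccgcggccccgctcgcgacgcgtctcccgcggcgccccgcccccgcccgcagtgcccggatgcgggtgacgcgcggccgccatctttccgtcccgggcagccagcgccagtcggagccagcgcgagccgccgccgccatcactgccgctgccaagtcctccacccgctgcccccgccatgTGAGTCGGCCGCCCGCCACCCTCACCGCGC
This VAMP2 stretch holds 85 NGG motifs, a GC content of 81.4% and 47 CpG dinucleotides. Over the 38 members with an entry in the table of promoters, the stretch of this length held from 18 to 110 NGG motifs with a median of 61, beside a median of 53 over all 27305 promoters, and 100% of both sets held at least one. The median GC content was 65.2% in members and 58.2% in all promoters. The sgRNAs were not placed on these sequences, since their letters and the build of their positions are not given in the sources used here.

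The other R-SNAREs assigned here to the plasma membrane had values nearer 0 than VAMP2, though their difference from VAMP2 was not tested. VAMP1, the other synaptobrevin, was at 0.03, and VAMP5, an R-SNARE known from muscle, at 0.01. SNAP25, the neuronal Qbc-SNARE and a partner of VAMP2, was at −0.20 ± 0.34, where one sgRNA at −0.77 (183 reads in the top and 388 in the bottom library) lay apart from the other 4, and SNAP23, its broadly expressed relative, was at −0.04 ± 0.11. The surface syntaxins, which provide the Qa helix, lay between −0.01 and 0.11. These were STX4 (−0.01), STX3 (0.03) and STX2 (0.11 ± 0.24), which act in most tissues, STX1A (0.05), which acts in synaptic release, and STX11 (0.03) and STX19 (0.01), which lack a transmembrane segment.

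Grouped by helix in place of route, the medians again lay near 0. They were 0.03 for 12 Qa-SNAREs, 0.07 for 5 Qb-SNAREs, −0.07 for 6 Qc-SNAREs, 0.04 for 4 Qbc-SNAREs, 0.03 for 9 R-SNAREs and −0.04 for the 2 SEC22-like proteins. The members were spread over all 3 sublibraries, 7 in H17, 20 in H23 and 15 in H456, with medians of 0.03, 0.02 and 0.03. The 7 in H17, among them NSF, SNAP47, VAMP2 and SNAP25, had a median absolute phenotype of 0.202, beside 0.109 for all genes of that sublibrary. In H17 the NTC sgRNAs also had the largest SD, and the part of sublibrary in these values was not tested.

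Read levels were a second readout of the same counts, taken over both quartiles together. The median level was 0.14 over member genes and 0.02 over all genes, and 14 of 42 were below 0. None of the members was below −1, whereas 7.97% of all genes were. Among single sgRNAs, 14 of 210 (6.67%) were below −1, beside 17.1% of all targeting sgRNAs. SNAP47 (−0.62) and NSF (−0.42) were among the members with fewer reads, whereas VAMP2 was at −0.02. Across the 210 sgRNAs, which share libraries and in sets of 5 their target, the absolute phenotype was larger where reads were fewer (Pearson r = −0.40, Spearman rho = −0.35). The signed phenotype was not related to the read level (r = 0.10, rho = 0.03). These values pool the 3 sublibraries. Members in H17 had the lowest median gene level (−0.05, beside 0.11 in H23 and 0.28 in H456). Their sgRNA phenotypes also had the largest SD (0.33, beside 0.25 and 0.22). The part of sublibrary in these correlations was not tested. No sequencing of the sgRNA library before knockdown was used, so a read level does not give a change over time.

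**Figure D4:**
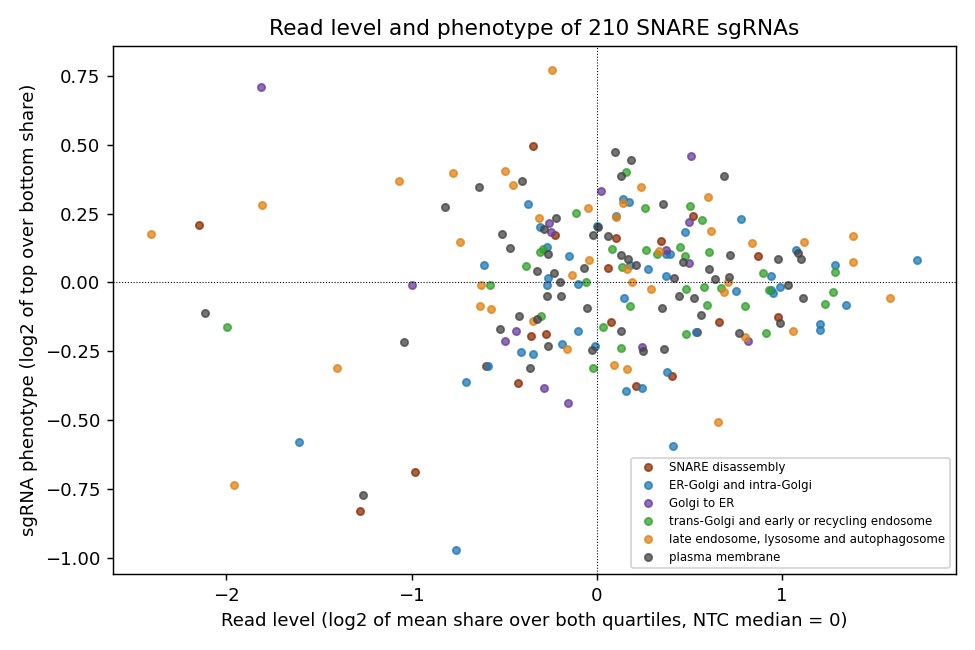
sgRNA phenotype (log2 of top over bottom quartile share, y axis) against the read level of the sgRNA (log2 of its mean share over both libraries relative to the median NTC sgRNA, x axis) for 210 member sgRNAs, coloured by role. Points spread further from 0 on the y axis towards the left, where reads are fewer (r = −0.40 for the absolute phenotype, all sublibraries pooled).

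Of the proteins that act with SNAREs, 38 further genes were examined from a list of SM proteins, subunits of the NRZ tether and regulators of exocytosis. None had an adjusted p under 0.05 or passed the pseudogene threshold, and 2 had an unadjusted exact p under 0.05, both positive, a threshold that 4.06% of all genes passed in that direction. STXBP4, a syntaxin-binding protein, was in H17 and had 4 positive sgRNAs and a phenotype of 0.37 ± 0.13 (exact p = 0.0021, adjusted p = 0.197). NBAS, a subunit of the NRZ complex that tethers vesicles at the ER for the SNAREs STX18, BNIP1 and USE1, was at 0.24 ± 0.19 (exact p = 0.0247, adjusted p = 0.503). The 8 SM proteins, which clasp assembling SNARE complexes, had a median of −0.05 with 6 negative, the 3 NRZ subunits a median of 0.05 with 0 negative, and the 27 exocytosis regulators a median of 0.05 with 9 negative. These medians stand beside the 0.00 of all genes.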

How the data were processed

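The authors deposited 1 table of read counts per library, with sgRNAs in rows, for a screen with the hCRISPRi-v2 top5 library. Reads came from genomic DNA amplified for 27 cycles of PCR, and the counts are not normalized. Per the methods, reads were aligned to the start of the sgRNA, cropped and counted per sgRNA with ScreenProcessing. Quartiles were taken from the sample titles, since the last letter of each library name in the labels points to the other quartile.

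A gene was read in the sublibrary that held its reads, and an sgRNA was kept if either of the 2 libraries held 50 or more of its reads. Of 440 rows for the members, 220 had no read, 220 were kept (5 per start site) and 210 were used, as SNAP47 and VAMP8 each have a further start site. If either count was 0, both were raised by 1. Phenotypes were centred on the median NTC sgRNA (553 in H17, 570 in H23, 739 in H456), and each start site was compared with NTC sgRNAs by an exact two-sided Mann-Whitney test (Python 3.11.15, scipy 1.17.1). The site with the lower p represented the gene, and p was adjusted over all 18905 genes by the Benjamini-Hochberg method. The choice of site was not itself adjusted for. Pseudogenes were sets of 5 NTC sgRNAs. The form of the hit score is not given in the methods and was taken as phenotype times −log10 p. Scripts were tested on simulated data.

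The members and lists were chosen with earlier results of these data known. Values per sgRNA are given for each member with an unadjusted p under 0.05 and for the 3 most negative and 3 most positive members, and the other members are given by phenotype. Alternatives varied the read minimum, the added count, the centring (including TMM factors from edgeR 4.0.16 in R 4.3.3), the mean over sgRNAs, the start site, the depth, the comparison set and the pseudogenes. RefSeq promoters (GRCh38.p14) matched 38 of 42 members, all but BET1L, SNAP25, STX17 and USE1.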

Additional observations from a re-analysis of the deposited data

Results flagged for a closer look

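Each member sgRNA belongs to one sublibrary, yet reads of member sgRNAs also appeared in the 4 libraries of the other sublibraries, where the comparisons do not use them. There were 3050 such reads, 0.555% of all reads of these sgRNAs. Each of the 6 libraries held from 376 to 729 of them, with a median per sgRNA from 2 to 4. The highest single counts were 97 reads of a VTI1A sgRNA in the bottom library of H456 and 66 reads of a STX5 sgRNA in the top library of H456. Their source was not tested.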

How the results depend on the processing

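No paired analysis was possible because each sublibrary had 1 top and 1 bottom library and the labels give no replicate numbers. No member had an adjusted p under 0.05 under any of the 12 alternatives. The median phenotype of the members moved by less than the SD over genes in each, a wide bound for a median near 0. It was 0.027 in the main setting, −0.0067 without the strongest sgRNA and 0.010 after thinning to equal depth. When olfactory receptor sgRNAs replaced the NTC sgRNAs, 1 member, NAPA, passed the pseudogene threshold, where 518 of all genes passed in place of 179. Of 504 values (42 genes under 12 alternatives), 477 kept their direction and their side of an unadjusted p of 0.05, 3 crossed it and 24, of 13 genes, changed sign with an unadjusted p above 0.05 throughout. The 3 that crossed it all came without the strongest sgRNA of each gene, where SNAP47 and VAMP2 missed that threshold and VAMP8 passed it (0.21, exact p = 0.0349). The VAMP8 sgRNA left out was at −0.51, and its other 4 were positive. NAPA, SNAP47 and VAMP2 had an unadjusted exact p under 0.05 under the other 11. Centring on all sgRNAs, TMM factors, the median over sgRNAs and the mean of the 3 strongest left every exact and adjusted p unchanged by construction. Those settings varied only the phenotypes and the pseudogene threshold, and were no further test of p. Signs changed without the strongest sgRNA for BNIP1 (−0.068), VAMP3 (−0.029), STX8 (0.045), VAMP7 (0.055), STX1A (−0.030), STX3 (−0.065), STX11 (−0.016), STX19 (−0.083), VAMP1 (−0.0090) and VAMP5 (−0.037). They changed with the median over sgRNAs for SEC22C (0.024), VAMP3 (−0.034), STX8 (0.14), STX4 (0.0012) and VAMP5 (−0.049), and with the mean of the 3 strongest for BNIP1 (−0.038), VAMP7 (0.054), STX3 (−0.024) and VAMP1 (−0.0093). VAMP1 was also negative when centred on all sgRNAs (−0.0028) or by TMM factors (−0.0012), VAMP8 with start sites pooled (−0.012), and STX19 (−0.0014) and VAMP5 (−0.0027) after thinning to equal depth. The number of negative members ran from 17 to 24 over these settings. Over all genes, the count with an adjusted p under 0.05 was 90, but 22 without the strongest sgRNA and 50 with olfactory receptor sgRNAs. The 179 genes past the pseudogene threshold became 35 without the strongest sgRNA and 109 at less than 5% pseudogenes, and 1533 genes with an unadjusted p under 0.05 became 762 without the strongest sgRNA. Leaving out an sgRNA also lowers the number of sgRNAs in each test. The one left out was the furthest from 0 in each gene, while no NTC sgRNA was left out. This setting therefore favours fewer calls for genes in general. With 10 other draws of pseudogenes, 0 members passed. Depth was low for the most extreme sgRNAs of NSF, SNAP25 and STX8, with 176, 183 and 138 reads in the top library.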
